A study of Mus musculus with 6 samples.

Results

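The ubiquitin-conjugating enzymes of the Ube2 gene family were followed in PAM212 cells with and without overexpression of the microRNA miR-28-3p. The family was taken as every gene in the deposited expression table whose name begins with Ube2, which gave 37 of 21936 listed genes. Of these, 32 had enough reads to be tested, among 11809 genes tested in all. The rule goes by gene name alone. PAM212 is a mouse cell line labelled as keratinocyte, the main cell type of the epidermis, although the series' design line names melanocytes. The overexpressing group comprised 3 libraries from PAM212 cells infected with a lentivirus that carries the mouse miR-28-3p gene. The control group comprised 3 libraries from PAM212 cells whose treatment label reads as not treated. Their titles carry the letters NC, and the sources used here do not give whether they received an empty virus, so the virus itself and the microRNA cannot be told apart in this comparison. Both groups were cultured in DMEM with 10% FBS, and polyadenylated RNA was sequenced. The labels do not state separate cultures, so the p-values measure only the spread between these libraries, which may be technical.

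Ubiquitin is a small protein that is attached to other proteins by a relay of activating (E1), conjugating (E2) and ligating (E3) enzymes. The E2 enzyme carries the activated ubiquitin on a cysteine and, together with the ligase, sets which kind of ubiquitin chain is built. Chains of different linkage send proteins to the proteasome, recruit repair and signalling factors, or alter traffic in the cell. Some family members carry related modifiers in place of ubiquitin: ISG15, which is made after interferon, SUMO and NEDD8. The members were therefore grouped by textbook role as mitotic, interferon-linked, DNA damage and replication, general, chain-extending, endoplasmic reticulum (ER)-associated degradation, SUMO and NEDD8, atypical, and other.

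The overexpressed RNA is shown first because its seed, bases 2 to 8 from the 5′ end, is the stretch that usually pairs with a target messenger. The mature mouse sequence of RefSeq lies at chr16:24827908-24827929 (GRCm38.p6, plus strand) and is given with its seed in capitals. The next lines show both matches to the seed, ATCTAGT in capitals, found on the sense strand of the 3′ untranslated regions of the 32 tested Ube2 genes (GENCODE M21, GRCm38). The Ube2j1 match is at chr4:33051644-33051650 on the plus strand, and the Ube2h match is at chr6:30211400-30211406 on the minus strand.
mmu-miR-28a-3p: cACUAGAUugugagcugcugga
Ube2j1 site: tggggtccatgATCTAGTaagaagtcagta
Ube2h site: gcattgtgatgATCTAGTgggcatgtctgt

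The messengers with these matches moved in opposite directions: Ube2j1 was higher by 0.73 and Ube2h lower, at -1.67, on the log2 scale in the overexpressing libraries. The match was present in 2 of 32 tested members (6.25%), against 757 of 11656 tested genes with an annotated 3′ untranslated region (6.49%). Across all tested genes the median log2 fold change was 0.36 with the match and -0.05 without it. These medians are not adjusted for gene length, which moved with the groups as given below, and its part in the difference was not tested. A match is a description of letters and not a shown binding site.

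Promoters are printed for Ube2c and Ube2t because both members are known to be made mainly in dividing cells, yet they moved apart in these libraries. The window is the 250 bases before the RefSeq start in GRCm38.p6: chr2:164769679-164769928 on the plus strand for Ube2c and chr1:134962315-134962564 on the plus strand for Ube2t. Capitals mark the CCAAT box (CCAAT, or ATTGG on the other strand) and, in Ube2c, the cell cycle homology region (TTTGAA, read here as TTCAAA), both known in promoters of cell cycle genes. Neighbouring CCAAT boxes on opposite strands may overlap in letters.
Ube2c promoter: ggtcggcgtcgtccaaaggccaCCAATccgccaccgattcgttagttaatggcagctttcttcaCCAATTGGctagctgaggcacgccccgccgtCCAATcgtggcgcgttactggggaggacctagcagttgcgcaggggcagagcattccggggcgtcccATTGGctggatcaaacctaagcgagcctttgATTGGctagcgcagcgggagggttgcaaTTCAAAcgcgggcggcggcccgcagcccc
Ube2t promoter: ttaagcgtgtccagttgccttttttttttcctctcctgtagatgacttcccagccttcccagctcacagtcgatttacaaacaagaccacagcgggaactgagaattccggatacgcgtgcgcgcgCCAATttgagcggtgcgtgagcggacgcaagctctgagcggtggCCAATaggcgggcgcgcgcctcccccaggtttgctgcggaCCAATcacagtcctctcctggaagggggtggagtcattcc

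Ube2c held 6 CCAAT boxes and 1 homology region, and Ube2t held 3 CCAAT boxes. The Ube2s window held neither motif. A CCAAT box was present in 22.0% of the 41 windows of 30 Ube2 genes and in 33.8% of 32851 promoter windows of all genes. TTTGAA was present in 9.76% of the Ube2 windows and in 16.0% of all windows. The interferon response core GAAANNGAA, searched on both strands, was not in the window of Ube2l6 and was present in 7.13% of all windows.

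Read counts per library ranged from 14309898 to 16383374 with overexpression and from 14706283 to 15385151 in controls. Within a library, 3 counts corresponded to 0.183 to 0.21 CPM, the read count scaled to a common library size by TMM. Summed CPM of 10 keratinocyte markers was 818 to 830 with overexpression and 565 to 581 in controls, and 8 of the 10 had counts. Krt5 and Krt6a were at 0 in all libraries. Of the 8 tested keratinocyte markers 5 were higher, among them Itga6 at 1.24 and Dsp at 0.55 on the log2 scale, and 3 were lower: Perp at -0.54, Dsg3 at -3.24 and Trp63 at -3.25. Trp63 averaged 0.11 CPM with overexpression and 1.13 CPM in controls, so the markers with counts go only in part with the label. For 8 melanocyte markers the sum was 7.33 to 8.22 CPM with overexpression and 8.05 to 9.78 CPM in controls, with Tyr and Kit at 0. Tyrp1 and Dct had 40 and 31 counts over the overexpressing libraries and 0 in controls. For 8 fibroblast markers it was 16.8 to 17.2 CPM with overexpression and 43.5 to 52.3 CPM in controls, with Thy1 and Lum at 0, and Pdgfra alone averaged 16.4 CPM with overexpression and 44.9 CPM in controls. For 8 leukocyte markers it was 4.17 to 5.61 CPM with overexpression and 43.6 to 47.2 CPM in controls, with Cd3e and Adgre1 at 0, and Cd74 alone averaged 3.65 CPM with overexpression and 44.4 CPM in controls. The part of these shifts in the results was not tested. In bulk RNA, fewer cells of a type and less RNA per cell cannot be told apart. Gene length also moved with the groups: with tested genes in 4 equal bins of length, the median log2 fold change was -0.52 in the shortest bin (up to 2893 bases) and 0.43 in the longest (from 6939 bases). The 8 members in the shortest bin had a median of -0.23 and the 5 in the longest 0.18.

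Nearly all members changed, as did nearly all genes. With edgeR's quasi-likelihood test at an adjusted p (Benjamini-Hochberg over all genes tested) under 0.05, 15 of 32 members were higher and 12 were lower with overexpression, and 5 were not called. Of all tested genes 86.0% were called, 42.1% higher and 43.9% lower, so the members' shares of 84.4%, 46.9% and 37.5% lie near the background. With library scaling by the upper quartile, the split became 8 higher and 19 lower, and all tested genes had a median of -0.26 on the log2 scale, in place of -0.03 with TMM scaling. A test against a minimum change of 1.5-fold was passed by 12 members, 6 in each direction, where 50.4% of all genes passed (23.4% higher and 27.0% lower). Those past a fitted change of 2-fold were Ube2cbp among the higher ones, where 14.8% of all genes lay, and Ube2l6, Ube2ql1, Ube2h, Ube2e2 and Ube2b among the lower ones, where 21.0% lay. The groups did not overlap for 26 members, 14 higher and 12 lower, against 86.0% of all genes, 42.2% higher and 43.8% lower.

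**Figure D1:**
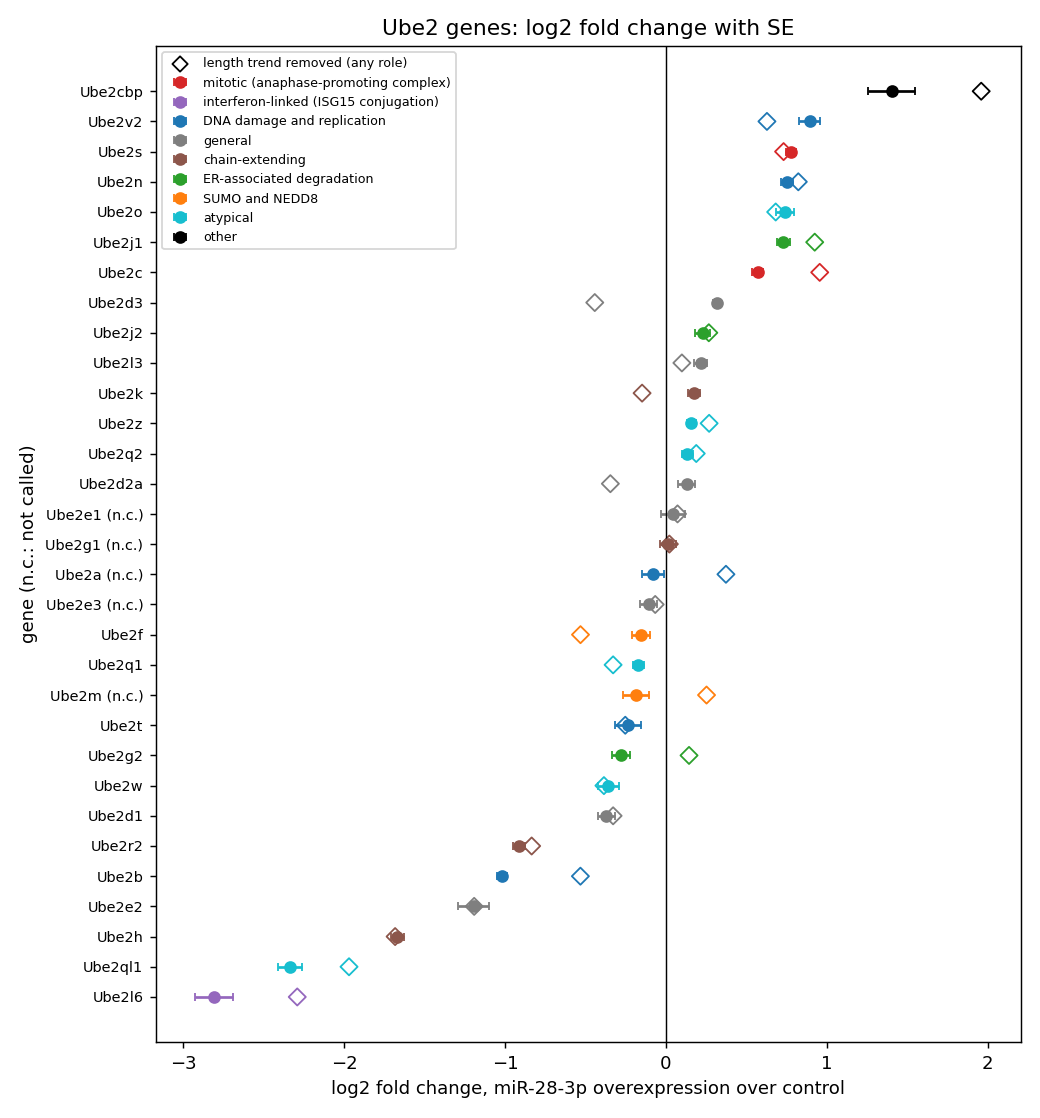
Log2 fold change of 31 of the 32 tested Ube2 genes, miR-28-3p overexpression over control, coloured by role, with bars for ± 1 SE of the edgeR fit and open diamonds for the values with the length trend removed. Ube2l6 lay lowest at -2.81 and Ube2cbp highest at 1.40, while most general and atypical members lay near 0, where several, such as Ube2l3, change sign with upper quartile scaling.

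The mitotic pair was higher with overexpression. UBE2C starts ubiquitin chains on substrates of the anaphase-promoting complex, the ligase that ends mitosis, and UBE2S extends them. Ube2c (chromosome 2, 164769898 to 164778822, plus strand) had 182, 184 and 183 CPM in overexpressing libraries, against 123, 125 and 122 CPM in controls. Ube2s (chromosome 7, 4794546 to 4812590, minus strand) had 219, 233 and 235 CPM in overexpressing libraries, against 133, 138 and 131 CPM in controls. For both genes every overexpressing library lay above every control library. Ube2c had a log2 fold change of 0.57 ± 0.03 (SE), a 1.48-fold difference (edgeR, adjusted p = 2.32e-23). Ube2s had one of 0.78 ± 0.03, a 1.71-fold difference (edgeR, adjusted p = 2.08e-30). Ube2s passed the test against a minimum of 1.5-fold, and Ube2c did not (edgeR, adjusted p = 0.651). After removal of the length trend the values were 0.96 for Ube2c and 0.73 for Ube2s, so the order of the pair turned with that setting. Of the exonic bases of Ube2c, 22.8% also lie in the opposite-strand gene Tnnc2, and the sources used here give no strand setting for the counting.

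Within each library the ratio of Ube2s to Ube2c in FPKM (read counts scaled by gene length and library total, a level per length) averaged -0.66 on the log2 scale with overexpression and -0.86 in controls. That difference of 0.20 did not overlap between groups (exact permutation test, p = 0.1, the smallest that 3 against 3 libraries allow), and it was -0.23 after removal of the length trend.

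The genes around this pair moved unevenly. All 10 listed substrates of the complex were higher, with a median log2 fold change of 1.42 against -0.03 for all genes, although Gmnn and Pttg1 turned to -0.02 and -0.06 with upper quartile scaling. Ccna2, which encodes cyclin A2, averaged 323 ± 1.9 CPM with overexpression and 56.4 ± 2.43 CPM in controls (SD, n = 3 each), a log2 fold change of 2.52 (edgeR, adjusted p = 9.5e-56). The mitotic cyclin gene Ccnb1 averaged 254 ± 2.9 CPM with overexpression and 58.7 ± 0.931 CPM in controls, a log2 fold change of 2.12 (edgeR, adjusted p = 4.83e-51). Kif11, a spindle motor, and Tpx2, a spindle assembly factor, were higher by 1.74 and 1.25. Ube2c and Ube2s therefore changed less in log2 units than the median substrate. Of the 17 listed genes for the complex itself, its activators and its inhibitor, 8 were higher, 6 lower and 3 not called, with a median of 0.08 (-0.15 with upper quartile scaling). The scaffold subunit Anapc1 was higher by 1.59 and the activator Cdc20 by 1.33, while Anapc11, the RING subunit that binds the E2, had a log2 fold change of -1.08 with 52.5 ± 2.23 CPM with overexpression and 110 ± 2.58 CPM in controls.

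The interferon-linked member was the most reduced of the family. UBE2L6 is the E2 that carries ISG15, a ubiquitin-like modifier, and its gene is induced by type I interferon. Ube2l6 (chromosome 2, 84798828 to 84810335, plus strand) had 3.46, 4.69 and 3.79 CPM in overexpressing libraries, against 28.5, 28.4 and 26.9 CPM in controls. All 3 overexpressing libraries were far below all 3 controls. The log2 fold change was -2.81 ± 0.12, that is 6.99-fold lower (edgeR, adjusted p = 1.19e-30), and it was -2.29 after removal of the length trend. The counts behind it were 179 over the overexpressing libraries and 1308 over the controls.

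UBE2L3 is the paralog of UBE2L6 and serves RING-between-RING and HECT ligases. Ube2l3 had 117, 122 and 129 CPM in overexpressing libraries, against 105, 108 and 104 CPM in controls. Its groups did not overlap, and its log2 fold change was 0.22 ± 0.04 (edgeR, adjusted p = 2.18e-06), or -0.01 with upper quartile scaling. Of its exonic bases, 28.6% are shared with Ydjc on the opposite strand. The FPKM ratio of Ube2l6 to Ube2l3, which no library scaling touches, was 0.0866, 0.112 and 0.0857 in overexpressing libraries, against 0.791, 0.771 and 0.753 in controls. With overexpression the paralogs were thus far apart per length, and in controls Ube2l6 was somewhat below Ube2l3. The log2 difference was -3.04 (exact permutation test, p = 0.1, adjusted over 9 pairs 0.129), with no overlap between the groups. Of 10 tested RING-between-RING ligase genes, 5 were higher, 3 lower and 2 not called, with a median log2 fold change of 0.11 (-0.12 with upper quartile scaling), and Ankib1 was higher by 1.87 while Rbck1, of the linear chain complex, was at -1.03.

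ISG15 conjugation genes other than Ube2l6 were lower as well, with 1 exception. Of 6 listed genes 5 were lower and 1 was higher, with a median log2 fold change of -2.36. Isg15 itself had 4.54, 5.87 and 7.14 CPM in overexpressing libraries, against 49.9, 51.6 and 52.2 CPM in controls, a log2 fold change of -3.12 (edgeR, adjusted p = 8.56e-38). Uba7, the activating enzyme of ISG15, averaged 2.42 ± 0.31 CPM with overexpression and 20.5 ± 0.93 CPM in controls, a log2 fold change of -3.07 (edgeR, adjusted p = 1.11e-28). Usp18, the protease that removes ISG15, averaged 0.953 ± 0.529 CPM with overexpression and 18.9 ± 0.593 CPM in controls, with a log2 fold change of -4.32 (edgeR, adjusted p = 3.9e-30). The E1, the E2, the modifier and the protease were therefore all lower with overexpression. The member of the list that was higher, at 0.54, was Arih1, which encodes a ligase that works with UBE2L3. Leukocyte and fibroblast marker sums, carried by Cd74 and Pdgfra, were also lower with overexpression, as given above, and their part in this result was not tested.

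**Figure D2:**
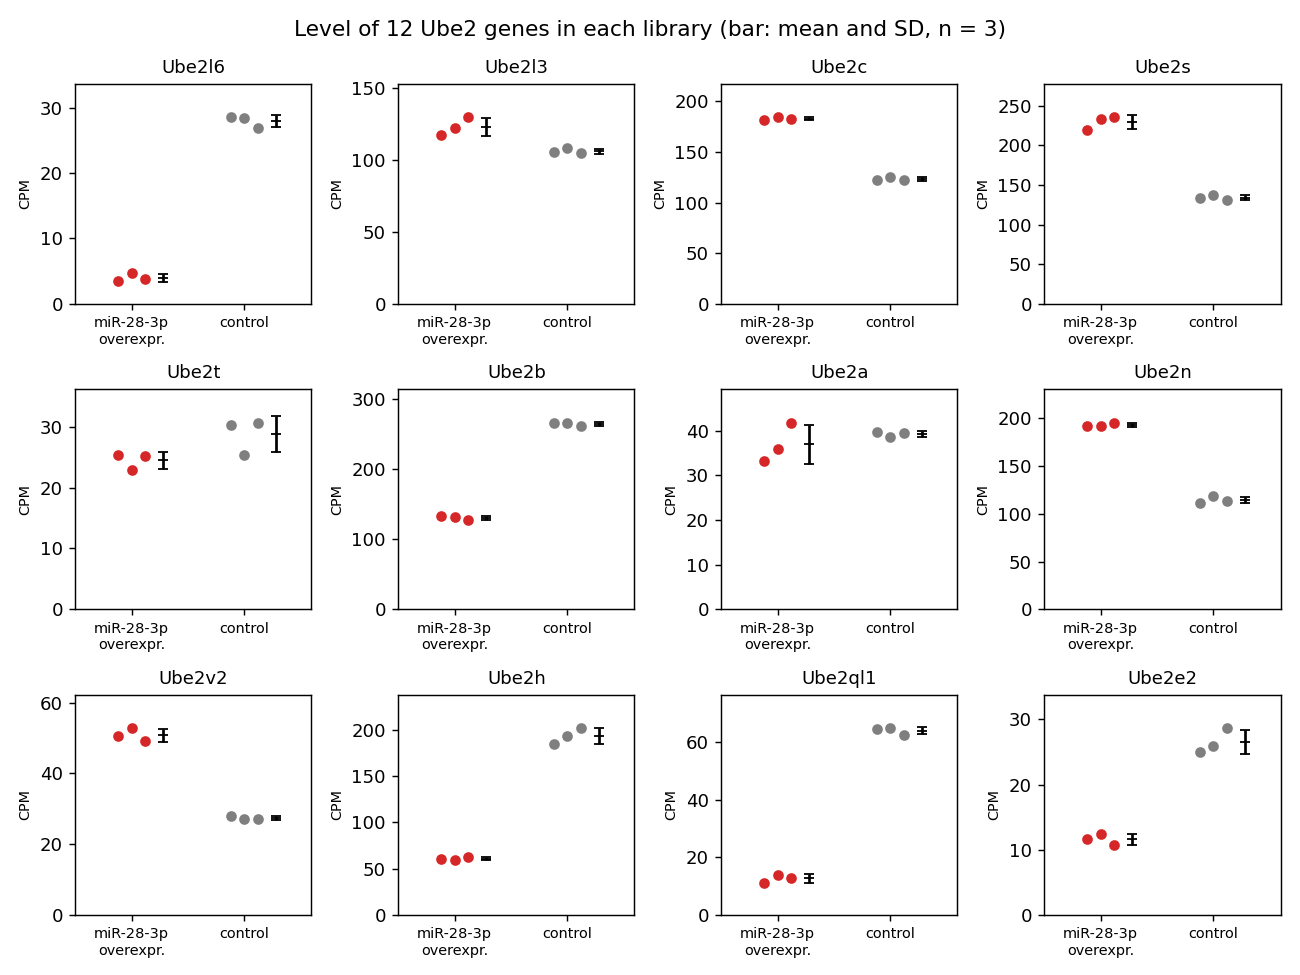
CPM of selected Ube2 genes in each library, with overexpressing libraries left of controls and a bar beside each group for the mean and SD (n = 3). Ube2l6 lies at 3.46 to 4.69 CPM with overexpression and at 26.9 to 28.5 CPM in controls, and Ube2c and Ube2s lie above their controls in every library.

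DNA damage and replication members split in direction. UBE2A and UBE2B are the mammalian forms of yeast RAD6 and act with RAD18 on the replication clamp and with RNF20 and RNF40 on histone H2B. Ube2b had 133, 131 and 127 CPM in overexpressing libraries, against 265, 266 and 261 CPM in controls. Ube2a, on the X chromosome, had 33.2, 35.8 and 41.8 CPM in overexpressing libraries, against 39.8, 38.5 and 39.4 CPM in controls. Ube2b was thus separated between the groups and Ube2a was not. The log2 fold change of Ube2b was -1.02 ± 0.03, that is 2.03-fold lower (edgeR, adjusted p = 9.08e-38), and -0.53 after removal of the length trend. Ube2a was not called at -0.08 ± 0.07 (edgeR, adjusted p = 0.255), and it stood at 0.37 after removal of the length trend. The log2 FPKM ratio of Ube2a to Ube2b averaged -1.92 ± 0.20 with overexpression and -2.85 ± 0.03 in controls (SD, n = 3 each), a difference of 0.93 with no overlap (exact permutation test, p = 0.1, adjusted 0.129).

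UBE2N builds chains that signal in DNA repair and in inflammation, and it works only with a catalytically inactive E2-like partner, UBE2V1 or UBE2V2. Ube2n had 191, 191 and 195 CPM in overexpressing libraries, against 111, 118 and 114 CPM in controls. Ube2v2 had 50.5, 52.7 and 49.1 CPM in overexpressing libraries, against 27.9, 27 and 27.1 CPM in controls. Enzyme and partner were both higher in every overexpressing library. Ube2n had a log2 fold change of 0.75 ± 0.03 (edgeR, adjusted p = 7.83e-29) and Ube2v2 one of 0.89 ± 0.06 (edgeR, adjusted p = 1.81e-19), and both passed the test against 1.5-fold. Ube2v1 was not tested, with 24 counts over the overexpressing libraries and 11 over the controls. Of its exonic bases 69.1% are shared with other annotated genes, mainly the same-strand gene Gm20431, so its count may miss reads. Ube2v1 had 0 counts in control replicate 3, which leaves no finite log2 ratio there, so it was left out of the paired ratios.

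UBE2T is the E2 of the Fanconi anaemia pathway, which repairs DNA crosslinks, and marks FANCD2 and FANCI. Ube2t (chromosome 1, 134962565 to 134974162, plus strand) had 25.3, 22.9 and 25.2 CPM in overexpressing libraries, against 30.3, 25.3 and 30.7 CPM in controls. The highest overexpressing library and the lowest control nearly touch. Its log2 fold change was -0.23 ± 0.08 (edgeR, adjusted p = 0.00623). The call was lost with DESeq2 (adjusted p = 0.056), without overexpression replicate 2 (edgeR, adjusted p = 0.054) and without control replicate 3 (edgeR, adjusted p = 0.053).

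The partners of these enzymes were higher more often than not, where 42.1% of all tested genes were called higher and 43.9% lower. Of 15 Fanconi genes, 10 were higher, 3 lower and 2 not called, with a median log2 fold change of 1.15. This median was 1.03 after removal of the length trend and 0.92 with upper quartile scaling. Fanca, a subunit of the core ligase, averaged 82.1 ± 3.34 CPM with overexpression and 15.6 ± 0.361 CPM in controls, a log2 fold change of 2.40 (edgeR, adjusted p = 1.81e-40). Usp1, which removes the mark that UBE2T places, averaged 255 ± 8.73 CPM with overexpression and 77 ± 2.19 CPM in controls, a log2 fold change of 1.73 (edgeR, adjusted p = 7.98e-47). Ube2t therefore differed in sign from the list's median. Of 10 tested partner ligases of RAD6 and UBE2N, 7 were higher, 1 lower and 2 not called, with a median of 0.81. After removal of the length trend that median was 0.51, and with upper quartile scaling 0.59. Rnf20 was higher by 0.90 and Rfwd3, whose product marks the single-stranded DNA-binding protein RPA, by 1.34, while Ube2b was lower.

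General members supply many ligases and begin chains. Of 7 tested, 3 were higher, 2 lower and 2 not called, with a median log2 fold change of 0.04. This median was -0.33 after removal of the length trend and -0.19 with upper quartile scaling. Ube2d3 had 466, 462 and 472 CPM in overexpressing libraries, against 375, 376 and 373 CPM in controls. It had the highest CPM of the family in every library, and its deposited length is 24499 bases. Its log2 fold change was 0.32 ± 0.02 (edgeR, adjusted p = 1.26e-18), and -0.44 after removal of the length trend. Ube2d1, its close relative, had 51.2, 51.3 and 51.5 CPM in overexpressing libraries, against 63.5, 67.1 and 68.5 CPM in controls. Its groups did not overlap, and the log2 fold change was -0.37 ± 0.05 (edgeR, adjusted p = 6.02e-09). The FPKM ratio of Ube2d1 to Ube2d3 was 0.616, 0.623 and 0.611 in overexpressing libraries, against 0.949, 1.00 and 1.03 in controls. That log2 difference of -0.69 (exact permutation test, p = 0.1, adjusted 0.129) became 0.11 after removal of the length trend. Ube2d2a was the weakest call of the family, at 0.13 ± 0.05 with overlapping groups (edgeR, adjusted p = 0.026), -0.10 with upper quartile scaling and -0.35 after removal of the length trend.

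The Ube2e genes, whose products carry an extended amino end, were not alike. Ube2e2 had 11.7, 12.4 and 10.7 CPM in overexpressing libraries, against 25, 26 and 28.6 CPM in controls. Every overexpressing library lay below every control, with a log2 fold change of -1.19 ± 0.10, that is 2.29-fold lower (edgeR, adjusted p = 1.06e-17). Ube2e3 stood at -0.11 ± 0.05 (edgeR, adjusted p = 0.0607) and Ube2e1 at 0.04 ± 0.08 (edgeR, adjusted p = 0.601), both with overlapping groups. Ube2d2b, annotated among the same enzymes, was at 0 in all libraries, which allows up to 0.183 to 0.21 CPM in a library by counting error.

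Of the 4 chain-extending members, which build the chains that feed proteins to the proteasome, 2 were lower, 1 was higher and 1 was not called. UBE2H acts with the CTLH ligase, UBE2R2 with cullin-RING ligases, and UBE2K and UBE2G1 extend chains with several ligases. Ube2h had 60.7, 59.1 and 62.5 CPM in overexpressing libraries, against 185, 193 and 202 CPM in controls. Ube2r2 had 105, 111 and 107 CPM in overexpressing libraries, against 206, 213 and 189 CPM in controls. Both were lower in every overexpressing library. Ube2h had a log2 fold change of -1.67 ± 0.04, that is 3.18-fold lower (edgeR, adjusted p = 4.85e-43), and Ube2r2 one of -0.91 ± 0.04 (edgeR, adjusted p = 2.62e-31). Ube2h was the member with the smallest p and carries one of the seed matches printed above. Ube2k had 140, 147 and 145 CPM in overexpressing libraries, against 125, 125 and 132 CPM in controls, a log2 fold change of 0.18 ± 0.04 (edgeR, adjusted p = 1.6e-05). Its direction turned both with upper quartile scaling, to -0.05, and after removal of the length trend, to -0.15. Ube2g1 was not called at 0.01 ± 0.05 (edgeR, adjusted p = 0.833). Of 11 CTLH ligase genes, a list added after the values were seen, 3 were higher, 3 lower and 5 not called, with a median of 0.06 (-0.17 with upper quartile scaling). The ones with the smallest p were Ypel5 at -1.89 and Wdr26 at 0.67.

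In ER-associated degradation, the removal of misfolded proteins from the endoplasmic reticulum, UBE2J1 and UBE2J2 are anchored in the membrane and UBE2G2 is recruited to it. Ube2j1 had 130, 129 and 129 CPM in overexpressing libraries, against 76.6, 78 and 79.2 CPM in controls. The groups were far apart relative to their spread, with a log2 fold change of 0.73 ± 0.04, or a 1.66-fold difference (edgeR, adjusted p = 1.4e-24). Ube2j2 had 91.3, 91.6 and 89.6 CPM in overexpressing libraries, against 75.1, 74.1 and 83 CPM in controls, a log2 fold change of 0.23 ± 0.05 (edgeR, adjusted p = 1.02e-05) that was 0.00 with upper quartile scaling. Ube2g2 had 53.6, 53.9 and 57.7 CPM in overexpressing libraries, against 65, 72.9 and 62.8 CPM in controls, a log2 fold change of -0.28 ± 0.06 (edgeR, adjusted p = 7.42e-06). It turned to 0.14 after removal of the length trend, and 10.3% of its exonic bases are shared with Gm49325 on the same strand. Of 11 listed ligases and cofactors 6 were higher and 5 lower, with a median of 0.17 (-0.06 with upper quartile scaling and -0.10 after removal of the length trend). The segregase gene Vcp was higher by 0.85, and Aup1, which recruits UBE2G2 to the membrane, was at -0.94.

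UBE2M and UBE2F carry the modifier NEDD8 to cullins. Ube2f had 51.3, 46.7 and 50.7 CPM in overexpressing libraries, against 55.1, 54.3 and 56.2 CPM in controls, a log2 fold change of -0.16 ± 0.06 (edgeR, adjusted p = 0.0092). The Ube2f call was lost with DESeq2 (adjusted p = 0.068) and without overexpression replicate 2 (edgeR, adjusted p = 0.106). Ube2m had 105, 109 and 105 CPM in overexpressing libraries, against 116, 109 and 138 CPM in controls. Its groups overlapped and it was not called at -0.18 ± 0.08 (edgeR, adjusted p = 0.0633). Control replicate 3, at 138 CPM, lay well above the rest, and without it the value was -0.08 (edgeR, adjusted p = 0.107). Ube2m was called lower with DESeq2 (adjusted p = 0.0165), with a replicate block (edgeR, adjusted p = 0.00111), with no filter (edgeR, adjusted p = 0.000121), with upper quartile scaling (edgeR, adjusted p = 0.00042), by limma on log2 FPKM (adjusted p = 0.0055 and 0.0058) and without control replicate 2 (edgeR, adjusted p = 2.6e-05). It was called higher, at 0.25, after removal of the length trend (edgeR, adjusted p = 0.0232). The log2 FPKM ratio of Ube2m to Ube2f differed by -0.02 with overlapping groups (exact permutation test, p = 0.8), and by 0.79 after removal of the length trend. Among all tested genes 42.1% were called higher and 43.9% lower. Of 16 SUMO genes 9 were higher, 5 lower and 2 not called, with a median of 0.28 (0.05 with upper quartile scaling). Ranbp2, a SUMO ligase at the nuclear pore, was at 1.59. Of 17 NEDD8 and cullin genes 11 were higher, 3 lower and 3 not called, with a median of 0.44 (0.21 with upper quartile scaling). Cul4b was at 1.54 and the cullin exchange factor Cand1 at 0.94.

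The atypical members held the second most reduced gene. UBE2QL1 is a little-studied E2-like protein. Ube2ql1 had 11, 13.9 and 12.9 CPM in overexpressing libraries, against 64.5, 64.8 and 62.6 CPM in controls. The lowest control was well above the highest overexpressing library, with a log2 fold change of -2.34 ± 0.07, that is 5.05-fold lower (edgeR, adjusted p = 5.52e-37), and -1.97 after removal of the length trend. UBE2O, a large enzyme with both E2 and E3 activity, moved the other way: Ube2o had 70.8, 70.7 and 74.3 CPM in overexpressing libraries, against 40.6, 42.2 and 46.4 CPM in controls, a log2 fold change of 0.74 ± 0.06 (edgeR, adjusted p = 1.02e-18). Ube2w, whose product marks the amino end of proteins, had 36.3, 34 and 35.3 CPM in overexpressing libraries, against 41.4, 47.7 and 46.4 CPM in controls, a log2 fold change of -0.36 ± 0.06 (edgeR, adjusted p = 1.27e-06).

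Changes in the remaining atypical members were small. Ube2q1 had 121, 117 and 123 CPM in overexpressing libraries, against 134, 135 and 138 CPM in controls, at -0.17 ± 0.04 (edgeR, adjusted p = 3.09e-05). Ube2q2 had 155, 149 and 148 CPM in overexpressing libraries, against 134, 139 and 140 CPM in controls, at 0.13 ± 0.04 (edgeR, adjusted p = 0.000466) and -0.10 with upper quartile scaling. Ube2z encodes an E2 that takes ubiquitin and FAT10 from UBA6. It had 240, 230 and 233 CPM in overexpressing libraries, against 210, 215 and 204 CPM in controls, at 0.16 ± 0.03 (edgeR, adjusted p = 2.81e-06) and -0.07 with upper quartile scaling. Uba6, its activating enzyme, differed far more, with 120 ± 1.24 CPM with overexpression and 36.5 ± 1.39 CPM in controls, a log2 fold change of 1.72 (edgeR, adjusted p = 2.71e-39). Ube2u had 2 counts in 1 overexpressing library and 0 in every other library. Ube2dnl1 and Ube2dnl2 were at 0 in all.

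Ube2cbp was the most increased gene under the name rule, but the authors' deposited table describes it as a Ube2c binding protein, and it is not an E2. It had 11.7, 11.2 and 13.2 CPM in overexpressing libraries, against 5.21, 4.35 and 4.06 CPM in controls. All overexpressing libraries were above all controls, at a low level in both groups, with a log2 fold change of 1.40 ± 0.14, a 2.64-fold difference (edgeR, adjusted p = 1.72e-13).

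Upstream of the whole family, 5 of 10 activating enzyme genes were higher, 3 lower and 2 not called, with a median log2 fold change of 0.22 (-0.01 with upper quartile scaling). Uba1, which charges most E2 enzymes, averaged 746 ± 4.21 CPM with overexpression and 578 ± 11 CPM in controls, a log2 fold change of 0.37 (edgeR, adjusted p = 5.58e-23). Of the 4 genes that encode ubiquitin itself none was higher, 3 were lower and 1 was not called. Ubb averaged 393 ± 1.54 CPM with overexpression and 792 ± 15.8 CPM in controls, a log2 fold change of -1.01 (edgeR, adjusted p = 1.61e-44), and Rps27a, a ribosomal protein fused to ubiquitin, stood at -1.19. Of 8 tested genes for E2-fold proteins with other names 3 were higher, 4 lower and 1 not called. Birc6, a very large E2 and inhibitor of cell death, was higher by 1.68, and Atg10, an E2-like enzyme of autophagy, was at -1.85.

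**Figure D3:**
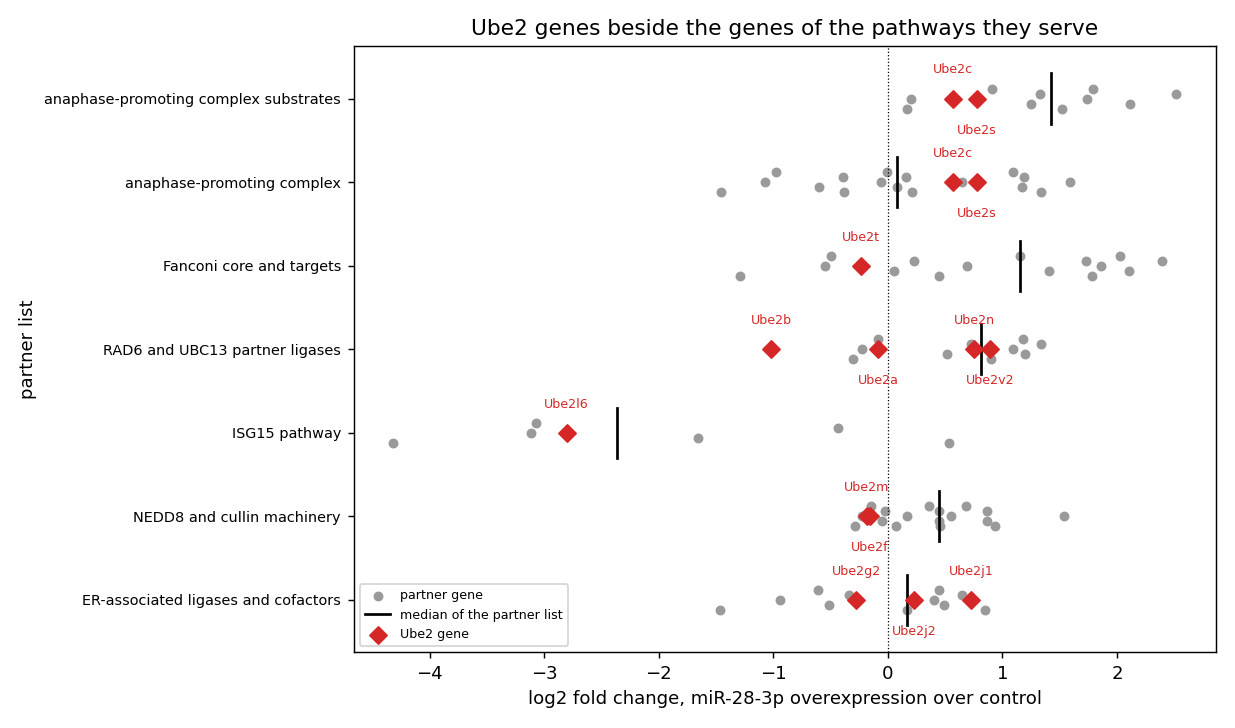
Log2 fold change, miR-28-3p overexpression over control, of each tested gene (grey) in 7 partner lists, with a line at each list's median and diamonds for the Ube2 genes that work with them. ISG15 pathway genes lie lowest, with a median of -2.36, and the substrates of the anaphase-promoting complex lie highest, with a median of 1.42.

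The composition of the Ube2 pool was compared per length within each library, as shares that no library scaling touches. The sums themselves do depend on scaling, by the library total for FPKM and by TMM for CPM. Summed FPKM of the 37 genes averaged 720 ± 3.86 with overexpression and 823 ± 3.89 in controls (SD, n = 3 each; exact permutation test, p = 0.1, the smallest possible). Their summed CPM averaged 3452 ± 24.5 with overexpression and 3418 ± 22.4 in controls (exact permutation test, p = 0.2). Summed FPKM did not overlap between the groups and summed CPM did, and gene length moved with the groups as given above.

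Mitotic members made up 15.2%, 15.6% and 15.5% of the summed FPKM in overexpressing libraries, against 9.24%, 9.36% and 9.07% in controls. Ube2l6 made up 0.235%, 0.316% and 0.254% in overexpressing libraries, against 1.81%, 1.78% and 1.68% in controls. General members made up 10.6%, 10.7% and 10.9% in overexpressing libraries, against 10.2%, 10.1% and 9.94% in controls. None of the 3 shares overlapped between groups, and the differences in percentage points were 6.24, -1.49 and 0.66 (exact permutation test, p = 0.1 each, adjusted over 9 roles 0.129). A share also depends on the pool's summed FPKM, which was lower with overexpression. A higher share therefore need not mean a higher summed FPKM of that role. The mitotic and interferon-linked differences kept their sign after removal of the length trend, at 7.06 and -1.23 points, and the general one turned to -1.78. With counts in place of FPKM the mitotic, interferon-linked and general differences were 4.42, -0.70 and 2.11 points.

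Chain-extending members made up 9.84% ± 0.162 with overexpression and 15.2% ± 0.2 in controls, and DNA damage members 18.2% ± 0.0503 with overexpression and 22.4% ± 0.222 in controls. Members for ER-associated degradation made up 10.7% ± 0.0507 with overexpression and 8.42% ± 0.16 in controls (SD, n = 3 each). These 3 roles did not overlap between groups either (exact permutation test, p = 0.1 each, adjusted 0.129). The DNA damage difference of -4.16 points was -1.25 both with the length trend removed and with counts in place of FPKM, and the ER-associated difference of 2.32 points was 1.47 with counts. The lower DNA damage share lay mainly in Ube2b, which made up 8.24% with overexpression and 15.6% in controls. Ube2n made up 6.14% with overexpression and 3.40% in controls, and Ube2v2 made up 0.957% and 0.481%. Ube2a was at 2.19% with overexpression and 2.17% in controls, and Ube2t at 0.680% and 0.746%. The shares of SUMO and NEDD8 members (exact permutation test, p = 0.2) and of atypical members (exact permutation test, p = 0.7) overlapped.

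**Figure D4:**
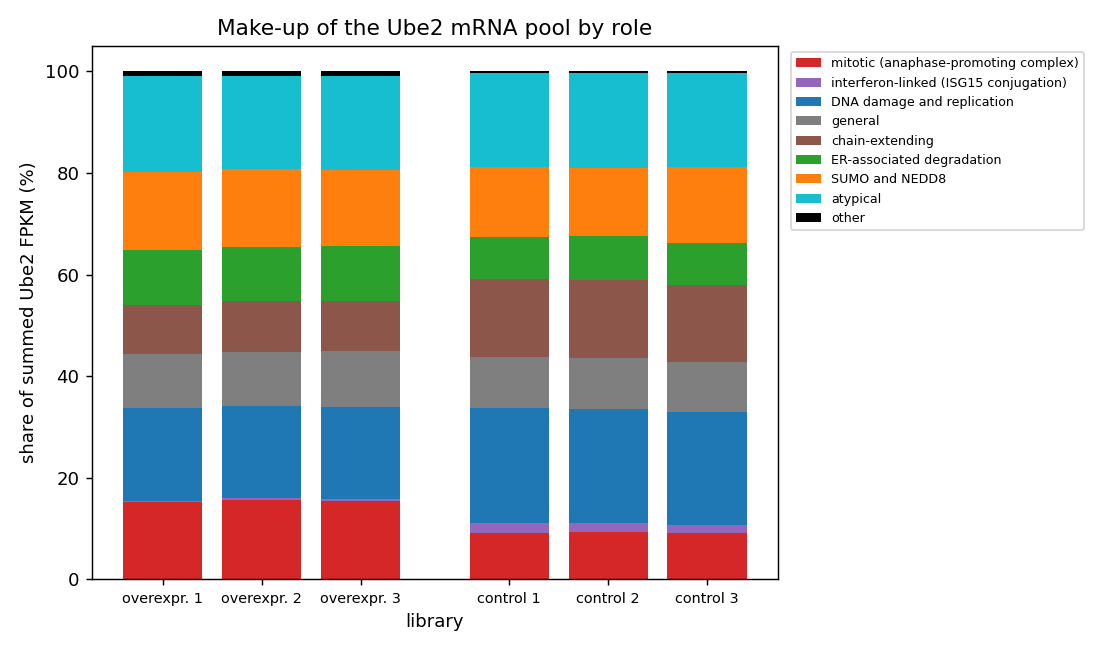
Share of summed Ube2 FPKM by role in each library, in percent, with overexpressing libraries left of controls. The mitotic share lies at 15.2% to 15.6% with overexpression and at 9.07% to 9.36% in controls, while the atypical share overlaps.

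The order of levels per length within the pool changed at its top. Ranks in FPKM rest on the deposited gene lengths, and by CPM Ube2d3 was highest in every library of both groups. With overexpression Ube2c was highest at 68.1 ± 0.485 FPKM, with Ube2b at 59.3 ± 1.45 and Ube2z at 56.7 ± 1.29 further down. In controls Ube2b was highest at 128 ± 1.36 FPKM and alone made up 15.6% of the pool, with Ube2z at 54.2 ± 1.37, Ube2m at 53 ± 6.57 and Ube2r2 at 49.9 ± 3.08. Ube2c ranked 6 in controls at 49 ± 0.712 FPKM, and the neighbours Ube2z, Ube2m, Ube2r2 and Ube2c lay within the spread of Ube2m. Ube2h ranked 21 with overexpression and 7 in controls, and Ube2ql1 ranked 30 with overexpression and 12 in controls. Ube2l6 was lowest of the 32 tested members with overexpression, at 1.93 ± 0.307 FPKM, and ranked 23 in controls at 14.4 ± 0.497 FPKM.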

How the data were processed

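The authors deposited raw read counts per gene and FPKM per gene, per the file headers, and a table of their own comparison with log2 fold changes and adjusted p-values. HISAT2, HTSeq and DESeq are named without versions in the submitters' processing notes, and the sources used here give no strand setting. The notes name mm9, but the coordinates of 37 of 37 Ube2 genes equal GENCODE M21 for GRCm38, which is used here. Each of 82387 nonzero FPKM values equalled count over length and column total within 0.001%. The authors' deposited table called 15 members higher and 12 lower, the same call as here in 32 of 32.

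Counts were tested with edgeR 4.0.16 in R 4.3.3 (TMM scaling, filterByExpr with a minimum count of 10, robust quasi-likelihood F test). Levels are TMM-scaled CPM with SD over n = 3 libraries. SE is the size of the log2 fold change over the square root of F. Shares and ratios were compared by two-sided exact permutation tests. Tested Ube2 members are named, except 1 that is counted in totals but not reported here, with per-library values for the members of the main roles and those of at least 2-fold, and up to 4 genes of smallest p per partner list; Anapc11, Uba1, Gmnn, Pttg1 and the marker genes were named after their values were seen. The script was checked on simulated counts. DESeq2 1.42.0, limma 3.58.1 on log2 FPKM with pseudocounts of 1 and 0.1, other scalings, no filter, a replicate block, a per-library length trend as offset and leaving out each library were alternatives. Ratios cover 9 pairs. The common biological coefficient of variation was 2.93%. Floors of 3 counts cover counting error only. The members and lists were chosen with earlier results of these data known. Sequences are from RefSeq and GENCODE.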

Additional observations from a re-analysis of the deposited data

How the results depend on the processing

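The 15 higher and 12 lower members became 8 and 19 with upper quartile scaling and 6 and 6 against a minimum of 1.5-fold; without single libraries they ranged from 14 to 15 and from 10 to 14. With upper quartile scaling the log2 fold change turned for Ube2z (-0.072), Ube2g1 (-0.22), Ube2e1 (-0.19), Ube2k (-0.054), Ube2q2 (-0.10), Ube2l3 (-0.014) and Ube2d2a (-0.10). With the length trend removed it turned for Ube2m (0.25), Ube2g2 (0.14), Ube2a (0.37), Ube2k (-0.15), Ube2d3 (-0.44) and Ube2d2a (-0.35). Ube2g1, not called, ranged from -0.019 to 0.053 without single libraries and was at -0.079 and -0.083 by limma on log2 FPKM (pseudocounts of 1 and 0.1), where Ube2e1 was at -0.046 and -0.053. With the length trend removed, differences in share (points) were -1.25 for DNA damage, 2.98 for ER-associated degradation, -0.77 for atypical, -6.83 for chain-extending, -1.78 for general, -1.23 for interferon-linked, 7.06 for mitotic and 0.77 for other members. With counts in place of FPKM they were -1.25, 1.47, -0.47, -6.27, 2.11, -0.70, 4.42 and 0.21 in the same order. Log2 ratio differences with the length trend removed were -2.40 for Ube2l6 to Ube2l3, 0.79 for Ube2m to Ube2f, -0.12 for Ube2g1 to Ube2g2, 0.66 for Ube2j1 to Ube2j2, 0.11 for Ube2d1 to Ube2d3, -0.52 for Ube2q1 to Ube2q2 and -0.23 for Ube2s to Ube2c. The cause of these shifts was not tested.

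Without single libraries, the share differences ranged from 6.15 to 6.36 points for mitotic, from -1.52 to -1.46 for interferon-linked and from 0.554 to 0.732 for general members. The log2 fold changes of Ube2l6 ranged from -2.93 to -2.71, of Ube2c from 0.57 to 0.58 and of Ube2s from 0.76 to 0.81. A replicate block gave 15 higher and 13 lower, the added call being Ube2m. Equal replicate numbers did not pair the libraries (correlations of deviations of -0.005, -0.003 and -0.031). DESeq2 gave 14 and 11, and limma on log2 FPKM 11 and 15. Depth limits the 5 untested members, which had from 0 to 24 counts in a group.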
